A study of Mus musculus with 8 samples.

Results

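The proteasome genes were read on mouse arrays of Keap1 null and wild-type (WT) mouse embryonic fibroblasts (MEFs). They were chosen by name, as every gene whose symbol, found through the RefSeq accession of its probe, begins with Psm, a letter from a to g and a digit. The rule found 50 genes on 71 probes, of 18217 named genes and 41174 probes in all, and used no measured value. All 50 genes had a probe that could be tested, and 70 of the 71 probes were tested. They comprise 31 constitutive subunits of the complete particle, 5 genes of the immunoproteasome and its activator, 7 assembly chaperones, 3 other activators or inhibitors, and 2 subunits of restricted tissue range. The remaining 2, Psmc3ip and Psme3ip1, share only the name pattern: they encode partner proteins of a subunit and an activator.

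RNA came from 4 groups with 2 arrays each: tumours (allografts) of Keap1 null MEFs, allografts of WT MEFs, dishes of Keap1 null MEFs and dishes of WT MEFs. The allografts grew in nude (nu/nu) mice, which lack most T cells and keep other leukocytes. Per the labels, each allograft started from 3000000 Keap1 null or 10000000 WT cells and was collected at 100 to 150 mm3, and labelling used 500 ng of RNA. The line names include TR, an abbreviation left unexplained there. Each genotype is 1 line in the labels, so genotype and line cannot be told apart, and tumours hold RNA of host cells beside that of the injected line. Whether replicates 1 and 2 are separate cultures or animals is not stated, so p-values measure the spread between these arrays, which may be technical.

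The proteasome degrades proteins that carry ubiquitin chains. Its core particle is a barrel of alpha and beta rings, and Psmb5, Psmb6 and Psmb7 encode the beta subunits that cut peptide bonds. The regulatory particle that caps the barrel recognises ubiquitin, removes it and unfolds the substrate with a ring of ATPases (the Psmc genes). After interferon signals, and constantly in many leukocytes, the catalytic subunits Psmb8, Psmb9 and Psmb10 take the places of Psmb5, Psmb6 and Psmb7, and the activator chains Psme1 and Psme2 accumulate; this immunoproteasome cuts peptides for MHC class I. The transcription factor NRF1 (Nfe2l1) raises most subunit genes together when the proteasome is impaired. NRF2 (Nfe2l2), which KEAP1 marks for degradation by the proteasome, has been tied in mouse cells to some of them, Psmb5 among these.

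Levels are log2 intensities of the deposited scanner signal minus the 75th percentile of the same array, so 0 is the 75th percentile. They compare arrays for 1 gene and never 1 gene with another. Differences were tested in 1 limma fit over all 8 arrays and 22919 targets, and a gene is called where its Benjamini-Hochberg adjusted p was below 0.05. Standard errors (SE) are those of the fit. The share of probes detected above background was 69.7% to 74.7% on allograft arrays and 60.6% to 64.5% on dish arrays, and no spot was saturated. Keap1 itself was lower in the Keap1 null groups, by -1.69 in allografts and -0.86 in dishes (log2). Where its probe lies relative to the deleted part is not given in the sources used here. The NRF2 target Nqo1 was higher by 5.78 and 3.6. All 8 fibroblast markers were well above background in each group. Their levels differed between the lines: 4 were called higher and 1 lower in Keap1 null dishes (11.4% and 9.78% of all targets were). In Keap1 null allografts 1 was called higher and 4 lower (20.5% and 21.3% of all targets were). Of the 10 leukocyte markers, Ptprc, Cd52, Laptm5 and Lcp1 were not above background in dishes of either line, Tyrobp was above it on 6 of the 8 arrays, and Coro1a, Rac2, Cd53, Itgb2 and Fcer1g on all 8. The 5 comparisons draw on the same arrays, so their values are set side by side without any count of overlap.

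Psmb9, Psmb8 and Psmb10 of the immunoproteasome had the largest differences between the lines among the proteasome genes in allografts. Compared with WT allografts, all 5 were lower in Keap1 null allografts, between 1.96-fold for Psme2 and 7.51-fold for Psmb9. In Keap1 null cells Psmb8 and Psmb9 were higher in allografts than in dishes, while Psmb10 and Psme1 were lower in allografts. In WT cells all 5 were higher in allografts, but with array-median scaling Psmb10 was not called and Psme1 and Psme2 turned marginally negative. In dishes 0 of the 5 were called between the lines.

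Psmb8 encodes the catalytic subunit that replaces Psmb5. Its log2 level was 0.26 and 0.44 in Keap1 null allografts and 2.76 and 3.00 in WT allografts, against -4.88 and -5.06 in Keap1 null dishes and -4.71 and -4.77 in WT dishes. The 4 allograft arrays lay far above the 4 dish arrays, and the WT allografts above the Keap1 null ones, without overlap. Between the lines it was 5.77-fold lower in Keap1 null allografts (log2 -2.53, SE 0.13, limma adjusted p = 5.97e-05). In dishes it differed by -0.23 (adjusted p = 0.299). Psmb9 encodes the subunit that replaces Psmb6 and lies near Psmb8 in the MHC region of chromosome 17. It had levels of -0.76 and -0.77 in Keap1 null allografts and 2.12 and 2.17 in WT allografts, against -4.09 and -4.08 in Keap1 null dishes and -4.00 and -4.07 in WT dishes. The pattern over groups was that of Psmb8, with replicate arrays within a few hundredths of a log2 unit. Psmb9 was 7.51-fold lower in Keap1 null allografts (log2 -2.91, SE 0.08, adjusted p = 1.11e-05), and differed by -0.05 in dishes (adjusted p = 0.733). Both genes were well above background on all 8 arrays, the dishes included.

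The promoters below are those of Psmb8 and Psmb9, which differed most, of Psme1, an activator gene also lower in Keap1 null allografts, and of Psmb5, the constitutive gene that Psmb8 replaces. Each runs from 250 bases before to 50 bases after the annotated start, 5′ to 3′ on the gene's strand, from RefSeq with build GRCm38.p6. Psmb8 is at chr17:34197945-34198244 (+), Psmb9 at chr17:34187281-34187580 (-), Psme1 at chr14:55578244-55578543 (+) and Psmb5 at chr14:54617946-54618245 (-). Capitals mark matches, on either strand, to a paired IRF half-site (GAAA, any 2 bases, GAAA), the STAT-type element TTCNNNGAA or the core of the antioxidant response element TGACNNNGC.
Psmb8: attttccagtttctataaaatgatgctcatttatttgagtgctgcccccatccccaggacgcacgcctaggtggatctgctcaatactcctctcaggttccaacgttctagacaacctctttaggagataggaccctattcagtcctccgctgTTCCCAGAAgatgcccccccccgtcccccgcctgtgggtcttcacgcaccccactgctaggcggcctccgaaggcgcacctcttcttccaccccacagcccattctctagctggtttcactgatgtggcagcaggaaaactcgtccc
Psmb9: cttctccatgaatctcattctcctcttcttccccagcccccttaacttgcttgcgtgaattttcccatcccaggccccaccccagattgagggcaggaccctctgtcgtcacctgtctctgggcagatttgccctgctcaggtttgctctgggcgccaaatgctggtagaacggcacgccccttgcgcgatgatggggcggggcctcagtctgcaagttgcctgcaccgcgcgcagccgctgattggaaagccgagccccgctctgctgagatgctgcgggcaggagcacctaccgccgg
Psme1: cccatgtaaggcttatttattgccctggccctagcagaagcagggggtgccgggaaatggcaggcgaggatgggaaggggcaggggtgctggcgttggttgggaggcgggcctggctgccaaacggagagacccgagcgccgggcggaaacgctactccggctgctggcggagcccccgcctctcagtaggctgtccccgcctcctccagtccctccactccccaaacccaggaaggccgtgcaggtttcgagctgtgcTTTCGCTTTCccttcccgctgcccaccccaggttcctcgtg
Psmb5: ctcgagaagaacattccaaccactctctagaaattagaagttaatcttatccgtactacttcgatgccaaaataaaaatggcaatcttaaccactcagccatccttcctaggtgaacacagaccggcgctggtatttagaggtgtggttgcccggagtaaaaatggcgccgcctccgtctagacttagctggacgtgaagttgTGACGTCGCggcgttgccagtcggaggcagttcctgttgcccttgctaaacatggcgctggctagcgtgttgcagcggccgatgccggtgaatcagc
The capitals are a STAT-type element in Psmb8, a paired IRF half-site on the other strand in Psme1 and an antioxidant response element core in Psmb5, and Psmb9 has no match in this window.

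Of the 50 genes, 43 had a promoter entry. The paired IRF half-site was in 3.44% of all 32851 promoters, in 1 of the 6 promoters of the 5 immunoproteasome genes and in 2 of the 27 promoters of 25 constitutive genes. The STAT-type element was in 8.3% of all promoters, in 1 of 6 immunoproteasome and 1 of 27 constitutive promoters. The antioxidant response element core was in 12.4% of all promoters, in 0 of 6 and in 4 of 27, those of Psmb5, Psmb6, Psmc6 and Psmd12. The CCAAT box was in 37.4%, in 1 of 6 and in 10 of 27. A match is a run of letters and not a site, and a window without one says nothing about binding.

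Psmb10, the third exchanged catalytic subunit, which replaces Psmb7, was at 2.79 and 2.52 in Keap1 null allografts and 4.35 and 4.57 in WT allografts, against 3.52 and 3.40 in Keap1 null dishes and 3.31 and 3.19 in WT dishes. The Keap1 null allografts were the lowest of the 4 groups and the WT allografts the highest, with no overlap between any groups. Against WT allografts, Keap1 null allografts were 3.5-fold lower (log2 -1.81, SE 0.14, adjusted p = 0.000225). Psme1, the alpha chain of the interferon-inducible activator, stood at 2.96 and 2.69 in Keap1 null allografts and 4.06 and 4.09 in WT allografts, against 3.33 and 3.27 in Keap1 null dishes and 3.15 and 2.97 in WT dishes. Psme2, its beta chain, stood at 4.65 and 4.53 in Keap1 null allografts and 5.49 and 5.62 in WT allografts, against 4.81 and 4.81 in Keap1 null dishes and 4.59 and 4.52 in WT dishes. For both activator chains the WT allografts stood above all 6 other arrays. Psme1 was 2.39-fold lower in Keap1 null allografts (log2 -1.26, SE 0.12, adjusted p = 0.000595) and Psme2 1.96-fold lower (log2 -0.97, SE 0.10, adjusted p = 0.000619).

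**Figure D1:**
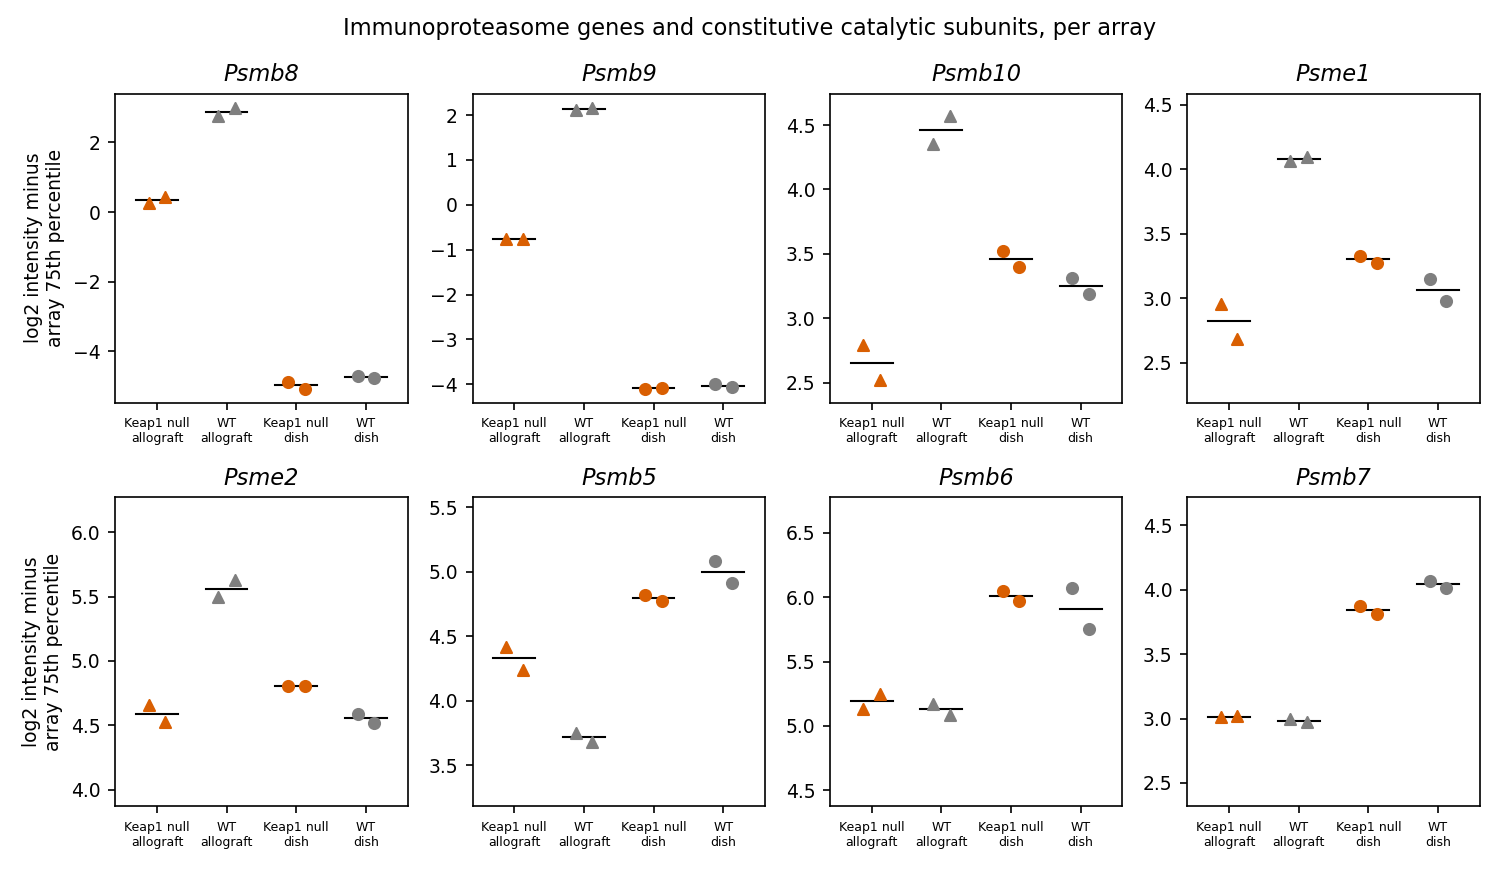
Log2 level on each array (points, with the group mean as a line, n = 2) of the 5 immunoproteasome genes and of the catalytic subunits Psmb5, Psmb6 and Psmb7. Axes differ between panels and levels compare arrays within a panel only. Psmb8 and Psmb9 stand far above the dishes in both allograft groups, Psmb10, Psme1 and Psme2 in WT allografts (none of these 3 called with array-median scaling), and Psmb5 is lowest in WT allografts.

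Read against the background, 5 of 5 immunoproteasome genes were lower in Keap1 null allografts where 41.8% of all targets were called in either direction and 21.3% lower, and their median difference was -1.81 (log2) against 0.00 over all targets. In dishes, where 21.1% of all targets were called in either direction, 0 of 5 were called by limma and 1, Psme2, had an unadjusted p below 0.05. The share of all targets at that unadjusted threshold was not computed. The difference between the lines itself differed between allografts and dishes for 5 of 5, all more negative in allografts (32.9% of all targets were called in either direction and 17% in this one). This interaction was -2.30 (SE 0.19) for Psmb8, -2.85 (SE 0.12) for Psmb9 and -2.02 (SE 0.19) for Psmb10, with limma adjusted p of 0.0005, 8.44e-05 and 0.0009. It was -1.50 (SE 0.17) for Psme1 and -1.22 (SE 0.14) for Psme2, with adjusted p of 0.00176 and 0.00147. Each of these calls was kept without any single array.

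In the Keap1 null line 2 of the 5 were higher in allografts than in dishes (64.9% of all targets were called in either direction and 35.8% higher), Psmb8 by 39.9-fold (log2 5.32, SE 0.13) and Psmb9 by 10.0-fold (log2 3.32, SE 0.08). In that line 2 were lower (29.1% of all targets were), Psmb10 by -0.81 (SE 0.14, adjusted p = 0.00293) and Psme1 by -0.48 (SE 0.12, adjusted p = 0.0151). The Psme1 call was lost without either Keap1 null dish array or Keap1 null allograft replicate 2, at an adjusted p of 0.0567 to 0.0794, with quantile normalization (0.0729) and without scaling (0.132). Psme2 differed by -0.22 (adjusted p = 0.0945). In the WT line 5 of 5 were higher in allografts than in dishes (68.1% of all targets were called in either direction and 35.9% higher). Psmb8 was 196-fold higher (log2 7.62, SE 0.13, adjusted p = 9.3e-07) and Psmb9 72.4-fold higher (log2 6.18, SE 0.08, adjusted p = 7e-07). Psmb10 was higher by 1.21, Psme1 by 1.02 and Psme2 by 1.01 (log2). These 3 smaller values depend on the scaling. With arrays scaled to their median, all targets shifted to a median of -1.04, Psmb10 was at 0.19 and not called (adjusted p = 0.357), and Psme1 (-0.01) and Psme2 (-0.02) turned marginally negative. Relative to that median they were at 1.23, 1.04 and 1.03.

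Leukocyte markers were lower in Keap1 null allografts. Between allografts and dishes of the Keap1 null line, 10 of 10 were called higher in allografts (35.8% of all targets were). Ptprc, Cd52, Laptm5, Lcp1 and Tyrobp could be tested only through the allografts, where they were high, so the filter fixed their direction. Coro1a, Rac2, Cd53, Itgb2 and Fcer1g were above background on all 8 arrays. In that comparison Psmb8 and Psmb9 were called higher, Psmb10 and Psme1 were called lower, and Psme2 was not called. The summed level of 10 leukocyte markers, as intensity over the array's 75th percentile, was 12.6 and 12.9 in Keap1 null allografts and 47.6 and 51.6 in WT allografts, against 0.434 and 0.442 in Keap1 null dishes and 0.408 and 0.396 in WT dishes. That of 9 measured macrophage markers of 10 was 20.3 and 20.5 in Keap1 null allografts and 74.97 and 84.2 in WT allografts, against 1.78 and 1.72 in Keap1 null dishes and 2.68 and 2.29 in WT dishes. Both lists were lower in Keap1 null allografts, with 8 of 10 and 8 of 9 members called lower (21.3% of all targets were). The exceptions were not called, except for the macrophage marker Cd14, which was called higher. The 10 lymphoid markers summed to 0.361 and 0.493 in Keap1 null allografts, where Cd3g, Ms4a1 and Ncr1 were not above background, and to 2.14 and 2.53 in WT allografts. In dishes they summed to 0.147 and 0.181 in the Keap1 null line and 0.242 and 0.284 in WT. The sum of the 4 measured neutrophil markers of 6 ran the other way, at 3.61 and 3.93 in Keap1 null allografts and 1.78 and 1.98 in WT allografts. Its members were not uniform: 2 were called higher in Keap1 null allografts (20.5% of all targets were). Csf3r was called lower there (log2 -1.49, 21.3% of all targets were), and Camp was not above background in WT allografts. The 6 endothelial markers reached 5.71 and 6.68 in Keap1 null allografts and 8.48 and 8.98 in WT allografts, and the 3 measured red cell markers of 5 reached 17.8 and 31.5 in Keap1 null allografts and 20.7 and 13.2 in WT allografts. In dishes these 3 sums were at most 0.0336, 0.184 and 0.111. The part of these cells in the immunoproteasome differences was not tested, and in bulk RNA fewer cells of a type and less RNA per cell cannot be told apart.

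The interferon response list (19 of 21 measured) summed to 7.51 and 8.35 in Keap1 null allografts and 49.1 and 68.7 in WT allografts. In dishes it summed to 7.08 and 7.09 in the Keap1 null line and 19.3 and 21.9 in WT. The Keap1 null line was thus lower in both conditions: 19 of 19 members were called lower in allografts, and 10 lower and 1 higher in dishes. Of all targets, 21.3% were called lower in allografts, and 9.78% lower and 11.4% higher in dishes. The antiviral genes Ifit3 (-4.55) and Ifit1 (-3.93) had large differences in allografts (log2). Cxcl9, a chemokine induced by interferon gamma, was not above background in Keap1 null allografts and at least 19.95-fold lower there than in WT allografts. It was above background in WT allografts alone and tested only through them, so its direction among the 19 was fixed by the filter. The interferon list's part in the result was not tested either.

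**Figure D2:**
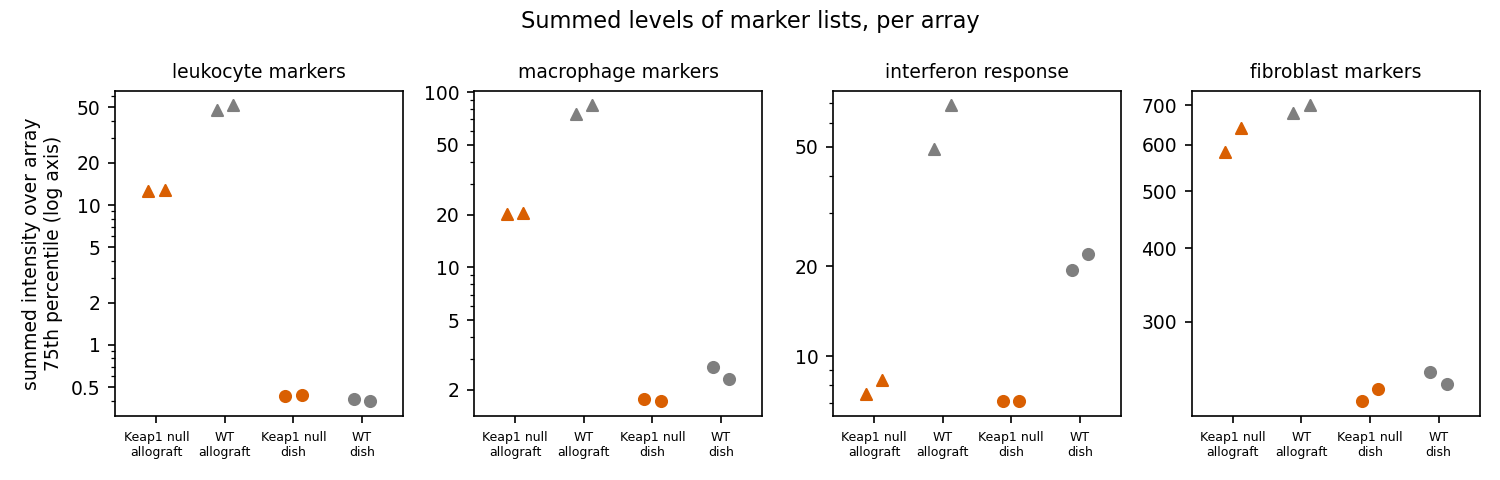
Summed intensity of 4 marker lists on each array, relative to the array's 75th percentile (log axes, which differ between panels; 2 arrays per group). Leukocyte and macrophage markers reach at most 2.68 in dishes and are lower in Keap1 null allografts than in WT ones. The interferon list is lower in the Keap1 null line in both conditions. The fibroblast sum is at least 219.6 on every array, while single fibroblast markers differ between the lines in both directions.

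The rest of the class I peptide pathway was lower in Keap1 null allografts too. The list of 14 genes holds peptide transporters and their partners, class I chains, a trimming enzyme and the factors that induce them. In Keap1 null allografts 14 of 14 were lower than in WT allografts, against 21.3% of all targets, with a median of -1.60 (log2). The largest were Tap1, a chain of the peptide transporter, at -3.36 (SE 0.16, adjusted p = 4.24e-05), the transcription factor Irf8 at -2.78 and the class I heavy chain H2-K1 at -2.70. In dishes 3 were higher (11.4% of all targets were) and 6 lower (9.78%). In Keap1 null cells 6 of 14 were higher in allografts than in dishes (35.8% of all targets were) and 1 was lower (29.1%), and in WT cells 13 were higher (35.9%). The summed level of the list was 83.9 and 78.9 in Keap1 null allografts and 278 and 283 in WT allografts, against 64.8 and 66.2 in Keap1 null dishes and 109.6 and 107.8 in WT dishes.

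Genes next to the immunoproteasome genes, named here for their position, did not all move with them. In RefSeq order on chromosome 17, Tap1 lies between Psmb9 and Psmb8, with Tap2 beyond Psmb8. In Keap1 null cells Tap2 was higher by 2.69 in allografts than in dishes, while Tap1 differed by 0.44 and was not called (adjusted p = 0.0512). In WT cells Tap1 was higher by 3.59 and Tap2 by 3.25 in allografts. Between Psme1 and Psme2 on chromosome 14 lies Emc9, a subunit of a membrane protein insertion complex. Its difference between Keap1 null and WT allografts was -0.87, called lower as its neighbours were. In WT cells it differed by -0.19 between allografts and dishes and was not called, where both neighbours were called higher.

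Most constitutive subunits were lower in allografts than in dishes in both lines. In Keap1 null cells 29 of 31 were called lower, where 29.1% of all targets were, with differences down to -1.12 for Psmd6 and a median of -0.71 (log2), against 0.03 over all targets. The 2 exceptions were Psmc4 (-0.29, adjusted p = 0.146) and Psmd8 (-0.01, adjusted p = 0.978). In WT cells 31 of 31 were called lower, against 32.2% of all targets, from -1.39 for Psmd7 to -0.56 for Psmb4, with a median of -1.02 against -0.02. On slide 1 the medians of the 31 were -0.69 in Keap1 null and -1.05 in WT cells, and on slide 2 they were -0.69 and -0.99. The list's median was negative under each scaling tried, but its size depends on the scaling. Relative to the median of all targets it stood at -0.73 in Keap1 null and -1.0 in WT cells, and with quantile normalization at -0.26 and -0.34. Without scaling 20 of 31 were called in WT cells, where 52% of all targets were called in either direction. Fibroblast markers summed to 583 and 640.2 in Keap1 null allografts and 681 and 700.3 in WT allografts, against 220 and 231 in Keap1 null dishes and 247 and 235 in WT dishes, and leukocyte markers were at most 0.442 in dishes. Their part in this result was not tested.

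Among the core particle genes, all 7 alpha subunits and all 7 constitutive beta subunits were lower in allografts in both lines. The alpha ring had a median difference of -0.63 in Keap1 null and -1.02 in WT cells, and the beta ring -0.81 and -0.87. Psmb5, which cuts after hydrophobic residues, was at 4.42 and 4.24 in Keap1 null allografts and 3.75 and 3.68 in WT allografts, against 4.82 and 4.77 in Keap1 null dishes and 5.08 and 4.91 in WT dishes. Its arrays fell into 3 levels, with the dishes highest and the WT allografts lowest. It was 1.38-fold lower in allografts of Keap1 null cells (log2 -0.47, SE 0.11, adjusted p = 0.0107). That call was lost without Keap1 null dish replicate 1 (adjusted p = 0.0632), with quantile normalization (0.123) and without scaling (0.121). In WT cells Psmb5 was 2.43-fold lower in allografts (log2 -1.28, SE 0.11, adjusted p = 0.000152).

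Psmb6, which cuts after acidic residues, stood at 5.13 and 5.25 in Keap1 null allografts and 5.17 and 5.08 in WT allografts, against 6.05 and 5.97 in Keap1 null dishes and 6.07 and 5.75 in WT dishes. Psmb7, which cuts after basic residues, stood at 3.01 and 3.02 in Keap1 null allografts and 2.99 and 2.97 in WT allografts, against 3.87 and 3.81 in Keap1 null dishes and 4.07 and 4.01 in WT dishes. For both, the lines lay close together in allografts and the dishes were higher. Psmb6 was lower in allografts by -0.82 in Keap1 null and -0.78 in WT cells, and Psmb7 by -0.83 and -1.06 (log2). The Psmb6 call in WT cells was lost with quantile normalization (-0.13, adjusted p = 0.398) and without scaling (-0.40, adjusted p = 0.108). In Keap1 null allografts, then, Psmb8 and Psmb9 were higher than in dishes and the other 4 catalytic genes lower. In WT allografts all 3 constitutive catalytic genes were lower than in dishes and the 3 that replace them higher.

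In the regulatory particle, the 6 ATPases had a median difference between allografts and dishes of -0.71 in Keap1 null and -1.01 in WT cells, and the 11 non-ATPase subunits of -0.76 and -1.2. In Keap1 null cells the lid subunits Psmd6 (-1.12, adjusted p = 0.000102) and Psmd3 (-0.97, adjusted p = 0.000895) and the alpha subunit Psma4 (-1.07, adjusted p = 0.00104) had the largest differences among constitutive genes. The largest difference in WT cells was that of Psmd7, the inactive partner of the deubiquitinase Psmd14 in the lid, at -1.39 (SE 0.25, adjusted p = 0.00317). Its replicate arrays differed more than those of most subunits: it was at 3.42 and 3.2 in Keap1 null allografts and 3.2 and 2.64 in WT allografts, against 4.26 and 4.0 in Keap1 null dishes and 4.54 and 4.08 in WT dishes, higher on the array of replicate 1 in each group. Psmd11, a lid subunit that clamps the cap to the core, followed in WT cells at -1.34 (SE 0.09, adjusted p = 5.93e-05), then the ATPase Psmc6 at -1.30 (adjusted p = 5.74e-05) and the base scaffold Psmd1 at -1.27 (adjusted p = 7.45e-05).

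**Figure D3:**
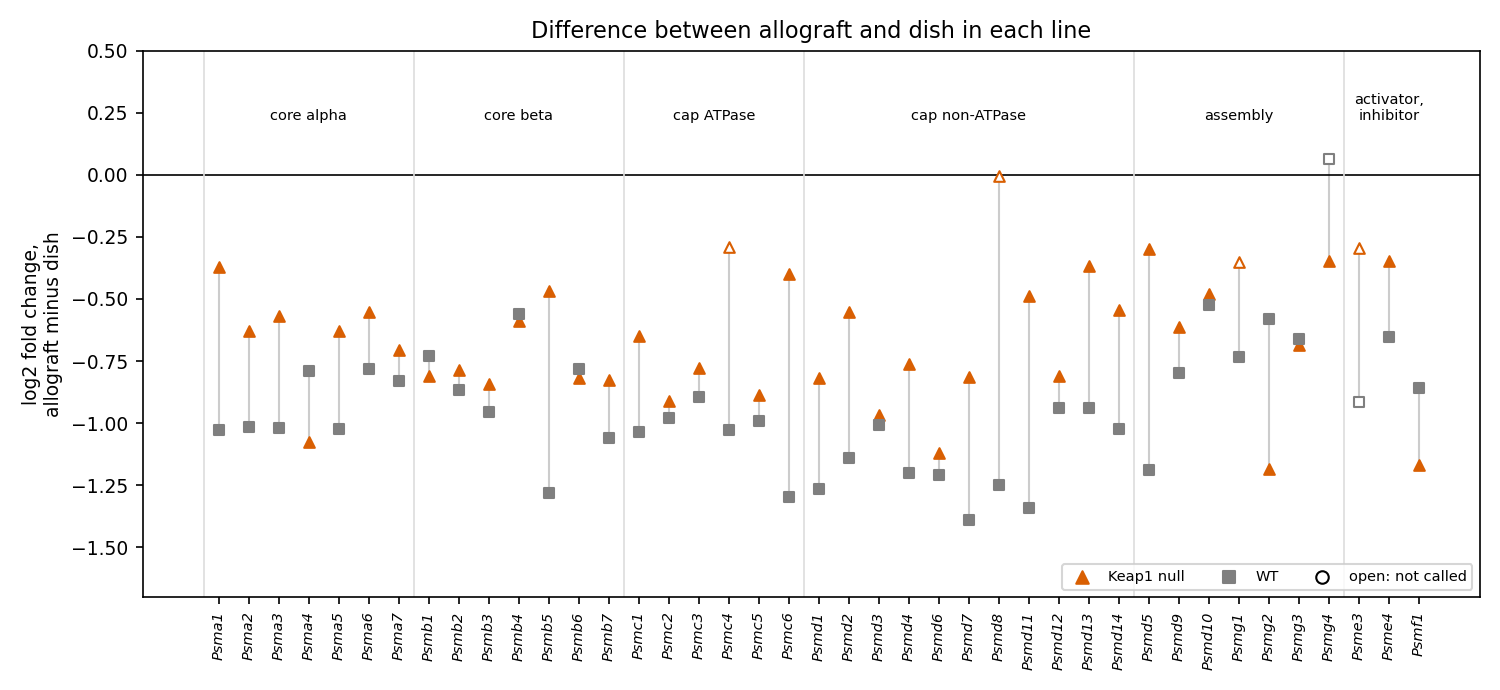
Log2 fold change of allograft over dish for each constitutive subunit, assembly chaperone and other regulator, in the Keap1 null line (triangles) and the WT line (squares), filled where called at a limma adjusted p below 0.05. The Keap1 null values of the 31 constitutive subunits lie between -1.12 and -0.01, and the WT values between -1.39 and -0.56.

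Between the lines, the constitutive subunits differed by at most 0.98 (log2), for Psmd11. In allografts 11 of 31 were higher and 0 lower in the Keap1 null line, 35.5% where 20.5% of all targets were called higher. At an unadjusted p below 0.05, 12 were higher and 0 lower, and the share of all targets at that threshold was not computed. The median was 0.16 against 0.00 over all targets, and it turned negative with quantile normalization (-0.05) and without scaling (-0.07). All targets then had medians of -0.05 and -0.22. Relative to all targets the list stood at 0.151 in the main fit, 0.151 without scaling and -0.005 with quantile normalization. The 11 were the alpha subunits Psma1, Psma2 and Psma5, Psmb5, the ATPases Psmc4, Psmc5 and Psmc6, and the non-ATPase subunits Psmd1, Psmd8, Psmd11 and Psmd14. The largest was Psmd11, at 5.52 and 5.53 in Keap1 null allografts and 4.54 and 4.55 in WT allografts, with replicates almost level and the lines far apart. It was 1.97-fold higher (log2 0.98, SE 0.09, adjusted p = 0.000445). Psmb5 was 1.53-fold higher (log2 0.61, SE 0.11, adjusted p = 0.00632), whereas Psmb6 (0.06) and Psmb7 (0.03) were not called. Psmd8 was at 3.09 and 2.91 in Keap1 null allografts and 2.48 and 2.33 in WT allografts (log2 0.59, SE 0.14, adjusted p = 0.0184). Psma2 was at 6.11 and 6.05 in Keap1 null allografts and 5.48 and 5.50 in WT allografts (log2 0.59, SE 0.08, adjusted p = 0.00269), and Psmc6 was at 5.58 and 5.62 in Keap1 null allografts against 5.0 and 5.08 in WT ones (log2 0.56, SE 0.09, adjusted p = 0.00352). The remaining 20 were not called, from -0.21 for Psmb4 upward.

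The number of constitutive genes called in allografts was 6 without WT allograft replicate 1, 7 without WT allograft replicate 2 or Keap1 null allograft replicate 1, and 8 to 10 without any other array. Psmd8 lost its call without either WT allograft array or Keap1 null allograft replicate 1 (adjusted p of 0.052 to 0.0927), with array-median scaling (0.0575) and with normexp background correction (0.0528). Psma1, Psmc4, Psmc5 and Psmd14 also lost theirs without some array. The other 6, Psma2, Psma5, Psmb5, Psmc6, Psmd1 and Psmd11, kept it without each. With normexp background correction 6 were called, and without scaling 1, with Psmb5 among those lost (0.39, adjusted p = 0.209). Of all targets, 36.2% were called with normexp and 32.3% without scaling, against 41.8% in the main fit. On slide 1 the median of the 31 was 0.08, with 21 positive, and on slide 2 it was 0.16, with 20 positive.

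In dishes 0 of 31 were called higher, where 11.4% of all targets were, and 3 lower in the Keap1 null line, which is 9.68% where 9.78% of all targets were called lower, so the share was that of the background. At an unadjusted p below 0.05, 1 was higher and 5 were lower, again without a share of all targets at that threshold. The 3 were Psmd2, Psmd8 and Psmc6. Psmd2, a base subunit that docks ubiquitin shuttle factors, was at 5.21 and 5.20 in Keap1 null dishes and 5.84 and 5.76 in WT dishes, and 1.51-fold lower (log2 -0.60, SE 0.08, adjusted p = 0.005). Psmd8, a lid subunit whose yeast counterpart completes the lid, was at 3.14 and 2.87 in Keap1 null dishes and 3.75 and 3.57 in WT dishes (log2 -0.65, SE 0.14, adjusted p = 0.0243). Psmc6 was at 5.96 and 6.04 in Keap1 null dishes and 6.32 and 6.36 in WT dishes (log2 -0.34, SE 0.09, adjusted p = 0.0404). The lines did not overlap in any of the 3, but these were picked by calls on the same arrays. Of all 31, 9 overlapped between the lines in dishes, so most that were not called did not overlap either. The share over all targets was not computed, and lack of overlap is no support for the 3 calls. Of the 3, Psmd2 alone kept its call without each array in turn. Psmd8 lost it without any 1 of the 4 dish arrays (adjusted p of 0.0502 to 0.133) and Psmc6 without any 1 of the 8 arrays (0.0605 to 0.222), so that 1 or 2 of the 31 were then called. With normexp background correction Psmd8 (0.0613) and Psmc6 (0.0641) were not called, and Psmc6 was not with quantile normalization (0.172) or with no filter on dim probes (0.0967). With the replicate number as a block 5 were called, Psmc1 (adjusted p = 0.0329) and Psmc4 (adjusted p = 0.0494) in addition, and without scaling 0 were. Of all targets, 28.4% were called with the block and 11.4% without scaling, against 21.1% in the main fit.

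**Figure D4:**
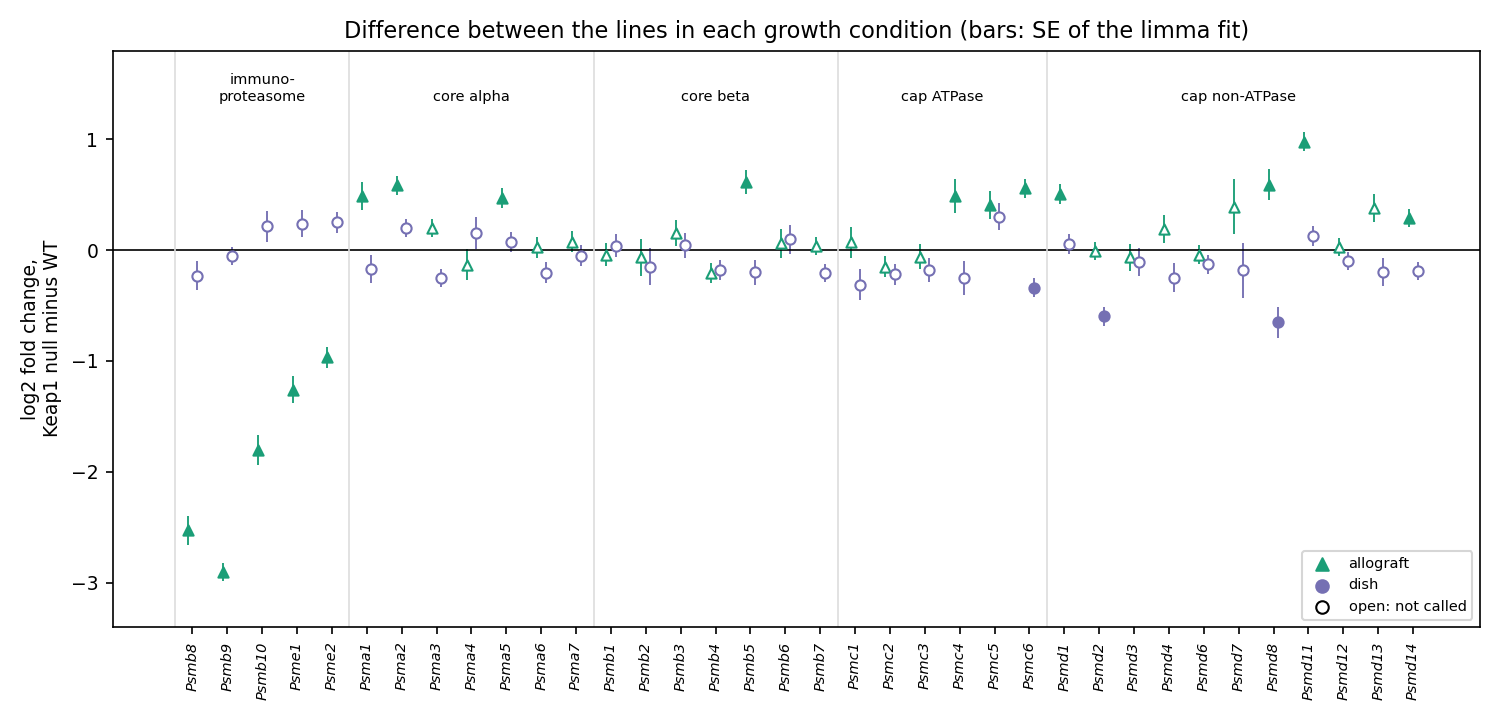
Log2 fold change of Keap1 null over WT for each immunoproteasome gene and constitutive subunit, in allografts (triangles) and dishes (circles), with the SE of the limma fit as bars and filled points where called. The 5 immunoproteasome genes lie between -2.91 and -0.97 in allografts and between -0.23 and 0.25 in dishes, while the constitutive subunits stay between -0.65 and 0.98.

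The difference between the lines was itself more positive in allografts than in dishes for 10 of the 31 constitutive subunits and more negative for 0 (15.8% of all targets were called in the positive direction). At an unadjusted p below 0.05, 13 were positive and 0 negative, and the share of all targets at that threshold was not computed. The largest was Psmd8, where the Keap1 null line was lower in dishes and higher in allografts (interaction 1.25, SE 0.20, adjusted p = 0.00572). Psmc6 also changed sides (0.90, SE 0.12, adjusted p = 0.00306), Psmd11 differed by 0.85 (SE 0.13, adjusted p = 0.00437) and Psmb5 by 0.81 (SE 0.15, adjusted p = 0.0107). These 4 kept the call without each array in turn. The list's median interaction was 0.38 against 0.04 over all targets, and -0.02 with quantile normalization. The count was 4 without either Keap1 null dish array, 5 without WT dish replicate 1 or either WT allograft array and 6 without WT dish replicate 2 or either Keap1 null allograft array. It was 4 with quantile normalization, 0 without scaling, 5 with normexp background correction, 5 with no filter on dim probes and 15 with the replicate block. Of all targets, 32.2%, 24.2%, 26.7%, 20.1% and 40.9% were then called, in that order, against 32.9% in the main fit.

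Of the 7 assembly chaperones, 6 were lower in allografts than in dishes in each line, where 29.1% of all targets were in Keap1 null and 32.2% in WT cells. The count in Keap1 null cells includes Psmd5 (-0.30, adjusted p = 0.0495), whose call there was lost without any 1 of the 8 arrays (adjusted p of 0.0529 to 0.211). Psmd5, a chaperone of the ATPase ring, stood at 3.40 and 3.28 in Keap1 null allografts and 2.42 and 2.24 in WT allografts, against 3.68 and 3.59 in Keap1 null dishes and 3.56 and 3.48 in WT dishes. The WT allografts stood apart from the 6 other arrays. Keap1 null allografts were 2.01-fold higher than WT ones (log2 1.01, SE 0.11, adjusted p = 0.000822), the largest positive difference between the lines among the proteasome genes there, with an interaction of 0.89 (SE 0.15, adjusted p = 0.00725) that was not called without scaling (0.258). Psmg2, a chaperone that helps to build the alpha ring, went the other way. It stood at 1.66 and 1.78 in Keap1 null allografts and 2.34 and 2.39 in WT allografts, against 2.90 and 2.92 in Keap1 null dishes and 2.98 and 2.91 in WT dishes. Here the Keap1 null allografts were the lowest (log2 -0.64 against WT allografts, SE 0.09, adjusted p = 0.0023). Its interaction of -0.61 (adjusted p = 0.0144) was not called without either Keap1 null dish array or WT allograft replicate 2 (0.0508 to 0.0641), nor with array-median scaling (adjusted p = 0.0868). In dishes its partner Psmg1 was lower in the Keap1 null line (log2 -0.58, SE 0.13, adjusted p = 0.032), a call lost without any 1 dish array (adjusted p of 0.0633 to 0.173), Keap1 null allograft replicate 1 (0.0507) or WT allograft replicate 1 (0.0501). It was also lost with quantile normalization (0.0941), without scaling (0.2805), with normexp background correction (0.1245) and with no filter on dim probes (0.0629).

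Among the other regulators, Psme4, a nuclear activator that binds the core in place of the cap, was higher in Keap1 null than in WT allografts (log2 0.53, SE 0.08, adjusted p = 0.00403). Psmf1, a protein that inhibits the core in vitro, was at -0.68 and -0.62 in Keap1 null allografts and -0.15 and -0.30 in WT allografts, against 0.53 and 0.51 in Keap1 null dishes and 0.72 and 0.55 in WT dishes. It was lower in allografts in both lines, by -1.17 in Keap1 null and -0.86 in WT cells, and Keap1 null allografts were below WT ones by -0.43 (SE 0.10, adjusted p = 0.0198). That call was lost without either Keap1 null allograft array or WT allograft replicate 1 (adjusted p of 0.0546 to 0.104) and with array-median scaling (0.0617). Its 3 probes disagreed most of all genes: between the lines in dishes they gave -0.12, 0.16 and 0.73, the last of which was called higher (adjusted p = 0.0161), while all 3 were called lower in Keap1 null allografts. Psme3, the nuclear counterpart of Psme1 and Psme2, was called in no comparison. Its values, chosen for display after they were seen, were 0.69 and 1.87 in Keap1 null allografts and 0.50 and 0.92 in WT allografts, against 1.2 and 1.95 in Keap1 null dishes and 1.33 and 1.92 in WT dishes. The array of replicate 2 was the higher in each group, and the SE of 0.47 was the largest of the 50 genes.

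Of the subunits of restricted range, Psma8, an alpha subunit of the testis, was well above background on only 3 arrays, both of WT allografts and 1 of Keap1 null allografts. It was at -6.65 and -6.09 in Keap1 null allografts and -5.00 and -4.58 in WT allografts, and not above background in any dish. Psma8 could be tested only through the WT allografts, the group where it was highest, so the direction of its calls is no support for a difference. Its fitted difference between the lines in allografts was -1.58 (log2, SE 0.33, adjusted p = 0.0119), with 1 of the 2 Keap1 null arrays above background. In WT cells it was at least 3.65-fold higher in allografts than in dishes (adjusted p = 0.000202), where the dim value is its own signal or, if higher, the lowest one that counted as above background on the same array. Psmb11, the beta subunit of thymic cortical epithelium, was at -5.54 and -5.67 in Keap1 null allografts and -5.79 and -5.99 in WT allografts, against -5.23 and -5.09 in Keap1 null dishes and -6.10 and -6.19 in WT dishes. Keap1 null dishes were 1.98-fold higher (log2 0.99, SE 0.12, adjusted p = 0.00263). Its second probe could not be tested. Psmc3ip and Psme3ip1 were lower in allografts in both lines, by -0.74 and -0.34 in Keap1 null cells and -0.80 and -0.34 in WT cells, and differed between the lines in neither condition.

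Genes that work with the proteasome under other names were mostly lower in allografts, as the constitutive subunits were. Of 19 listed ubiquitin receptors, shuttle factors, assembly factors and cap-bound enzymes, 17 were measured. In Keap1 null cells 11 were lower in allografts than in dishes (29.1% of all targets were) and 1, the proteasome scaffold Ecpas, was higher by 0.30 (adjusted p = 0.0372). In WT cells 17 of 17 were lower (32.2% of all targets were). Between the lines, 6 were higher and 1 lower in Keap1 null allografts, where 20.5% of all targets were higher and 21.3% lower. The 6 were led by Zfand2a at 0.85 (adjusted p = 0.00415), a stress-induced proteasome partner, the shuttle factor Ubqln1 at 0.81 (0.00307) and the activator Zfand5 at 0.78 (0.0037). The 1 lower gene was Fbxo7, an F-box protein that binds Psmf1, at -0.59 in allografts and -0.54 in dishes, where it was the 1 called gene of the list.

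The 2 named regulators of subunit genes were read in the same fit. Nfe2l1 was higher in Keap1 null than in WT allografts by 0.53 (SE 0.10, adjusted p = 0.009) and differed by -0.07 in dishes, with an interaction of 0.60 (adjusted p = 0.0255). Of the 6 listed genes of its pathway 5 were measured: the ubiquitin ligase Syvn1 was also higher in Keap1 null allografts (0.56, adjusted p = 0.00539) and the other 3 were not called. Nfe2l2 was higher by 0.60 in allografts and differed by 0.07 in dishes. Among 14 NRF2 targets, 14 were higher in Keap1 null allografts (20.5% of all targets were) and 12 in Keap1 null dishes (11.4%), led in allografts by Gsta1 (9.77) and Slc7a11 (8.12), which act in glutathione conjugation and cystine uptake (log2). Beside these, 11 constitutive proteasome genes were called higher in Keap1 null allografts and 0 in Keap1 null dishes.

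Several probes were tested for 16 of the 50 genes. In none of the 5 comparisons did 1 gene have probes called in opposite directions. Probes of 1 gene fell on both sides of the threshold in 1 gene each for the lines in allografts and in dishes, in 2 for Keap1 null cells and 0 for WT cells between allografts and dishes, and in 4 for the interaction. The median range between the probes of a gene was 0.10 in allografts and 0.05 in dishes between the lines (log2).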

How the data were processed

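Agilent mouse arrays of 1 colour were scanned for 4 groups of 2 samples, and the intensity values were deposited as Feature Extraction output, version 10.7.3.1 per the file headers, already corrected for background. The deposited value table differed from that processed signal by at most 0.496% and served as the unscaled alternative. From the scanner files, log2 of the processed signal minus each array's 75th percentile was computed. A probe was tested if both arrays of some group had it well above background, and a gene was read from its tested probe of highest mean. Accessions were paired with symbols through a RefSeq table of GRCm38.p6, used for names, gene order and promoters only. With limma 3.58.1 in R 4.3.3, 1 fit over all 8 arrays and 22919 targets (4 residual degrees of freedom and 1.84 prior ones) gave 5 comparisons, with a call where the p adjusted by Benjamini-Hochberg was below 0.05; 18 targets were fitted on 7 arrays, 0 of them proteasome genes. An exact permutation test of 2 arrays against 2 cannot go below 0.33. The fit was also run on simulated arrays with planted changes, made from the real means and spreads. These had no slide effect, so they do not test how the fit handles one. The number of arrays limits the precision.

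The replicate number equals the slide, per the file headers. Same-numbered arrays deviated together from their group means (correlations of 0.25 to 0.43 over targets), so the numbers pair the arrays, and a fit with that block was an alternative. The other alternatives were array-median scaling, quantile normalization, no scaling, normexp background correction (offset 50, on the spots' median signals), other filters on dim probes, and leaving out each array. Always named were the 5 immunoproteasome genes and Psmb5, Psmb6 and Psmb7, then up to 5 called genes of largest change in each direction and comparison, and up to 3 of each other list. Genes named as the ends of a range, as exceptions or as members of a small count were chosen after their values were seen. The members and lists were chosen with earlier results of these data known. One listed gene set is not reported here.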

Additional observations from a re-analysis of the deposited data

Results flagged for a closer look

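For 19 of the 50 proteasome genes, the difference between the Keap1 null and WT lines was called as not the same in allografts and in dishes. This used the interaction term of the limma fit (log2, allograft difference minus dish difference). Of all targets, 32.9% were called for the same term, so the total of 19 is near the background. Among constitutive subunits the term was 0.66 for Psma1, 0.45 for Psma3, 0.81 for Psmb5, 0.74 for Psmc4 and 0.90 for Psmc6. It was 0.45 for Psmd1, 0.59 for Psmd2, 1.25 for Psmd8, 0.85 for Psmd11 and 0.48 for Psmd14. Among assembly chaperones it was 0.89 for Psmd5 and -0.61 for Psmg2. The immunoproteasome genes all had negative terms, of -2.30 for Psmb8, -2.85 for Psmb9, -2.02 for Psmb10, -1.50 for Psme1 and -1.22 for Psme2. The tissue-restricted subunits had terms of -1.58 for Psma8 and -0.70 for Psmb11. Psma8 was not above background in any dish, so the dish part of its term is no measured difference. It was tested only through the WT allografts, where it was highest. Without 1 array the calls of Psma1, Psma3, Psmc4, Psmd1, Psmd2, Psmd14 and Psmg2 were lost in some of the 8 fits. No group was large enough to look for a single outlying array.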

How the results depend on the processing

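With 1 array left out, the number of constitutive genes called was 6 to 10 between the lines in allografts and 1 to 2 in dishes. It was 24 to 28 for allografts against dishes of Keap1 null cells, 31 for WT cells in every fit, and 4 to 6 for the interaction. For the immunoproteasome genes the counts were 5 and 0 between the lines, 3 to 4 in Keap1 null and 5 in WT cells, and 5 for the interaction. Against 11, 3, 31 and 10 constitutive calls (lines in allografts, lines in dishes, WT growth, interaction), no scaling gave 1, 0, 20 and 0. The share of all targets called fell too, from 41.8%, 21.1%, 68.1% and 32.9% to 32.3%, 11.4%, 52% and 24.2%. Normexp gave 6 in allografts, 1 in dishes and 5 for the interaction, where 36.2%, 12.5% and 26.7% of all targets were called. Quantile normalization gave 4 for the interaction (32.2% of all targets were called) and 1 immunoproteasome gene in dishes, Psme2 (18.3%). No filter gave 5 for the interaction (20.1%). With the replicate block, which is also the slide, 13 constitutive genes were called in allografts, 5 in dishes, 30 in Keap1 null growth, 31 in WT growth and 15 for the interaction. No call was lost. The share of all targets called rose too, to 49.8%, 28.4%, 71.9%, 74.5% and 40.9% in that order, from 41.8%, 21.1%, 64.9%, 68.1% and 32.9%. Array-median scaling left 2 of 5 immunoproteasome genes called in WT growth, where 84.2% of all targets were called in either direction. It reversed Psme1 (-0.0053) and Psme2 (-0.0165), by its shift of all targets to -1.04. For the other changes the cause was not tested. Of all targets called, the share called higher moved with the scaling. In Keap1 null growth it was 55.2%, against 27.3% with array medians and 44.5% with quantiles, and in WT growth 52.7%, 25.9% with array medians and 78.5% unscaled. Between the lines it was 49.0% in allografts (30.5% unscaled) and 53.7% in dishes (37.3% with array medians and 76.4% unscaled). For the interaction it was 48.2% and 23.3% unscaled. Of the recomputed values for named genes, 653 kept direction and side of the threshold, 47 lost the call, 2 gained it and 2 reversed.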
